A study of Mus musculus with 6 samples.

Results

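The 7 genes of folate uptake and folate enzymes, Slc46a1, Slc19a1, Fpgs, Ggh, Tyms, Shmt1 and Mthfd1, were taken by symbol from a table of 18268 genes measured by RNA sequencing. The samples were colorectal tissue of C57BL/6 mice, adult males according to the methods, given the epithelium-damaging polymer DSS (dextran sulfate sodium) for 7 days to induce colitis. In addition, 3 mice received berberine (BBR), a plant alkaloid, and 3 received sulfasalazine (SASP), an aminosalicylate prodrug, by gavage for 6 days. All 6 mice were colitis mice with a drug, so each difference below is between the drug groups. Healthy or untreated colitis mice were not analysed here. The paper speaks of rectal samples for its BBR sequencing and of colon samples for its SASP sequencing. In its direct comparison of the drugs, BBR was given at a lower dose than SASP. The part of sampled site or dose in the differences was not tested.

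Folates carry single carbon units for the synthesis of thymidylate and purines and for the methionine cycle. Dietary folate enters intestinal cells through a proton-coupled transporter, is retained inside the cell by the addition of glutamates, and is passed between forms by a set of cytosolic and mitochondrial enzymes that dividing cells need for DNA synthesis. As background, SASP is itself known to inhibit folate transport and some folate enzymes, and treatment with it is associated with low folate. This says nothing of the transcript levels measured here.

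Levels are given as FPKM (fragments per kilobase of transcript, relative to all mapped fragments), a unit per length in which genes can be compared. Mice are numbered 1 to 3 in each group only to name them. Between 11518 and 12307 genes per mouse lay at or above 1 FPKM, and the estimated depth was 16400000 to 18200000 reads. On that estimate the lowest of the 7 genes, Slc19a1, rested on about 63 to 220 reads per mouse and the highest, Ggh, on about 10000 to 19000. In the colon marker list, 6 of 6 genes were present, with a summed level of 2768 to 4402 FPKM under BBR and 1377 to 2460 FPKM under SASP, whereas 4 of the 5 small intestine markers in the table stayed below 1 FPKM in every mouse. The other was Fabp6, at 2.96, 3.31 and 0.90 FPKM under BBR against 22.8, 3.16 and 8.77 FPKM under SASP. BBR mouse 3 stood apart from its group. Across genes its correlation with BBR mice 1 and 2 was 0.953 and 0.949, against 0.987 between those mice. With the SASP mice it was 0.920 to 0.953, so BBR mouse 3 was no closer to BBR mouse 1 than to SASP mouse 2. The other BBR mice had 0.916 to 0.953 with the SASP mice. The smooth muscle markers of BBR mouse 3 summed to 6579 FPKM, against 2773 and 2851 FPKM in BBR mice 1 and 2 and 702 to 2211 FPKM in SASP mice. Results are therefore also given without this mouse, a choice made from these same data.

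All 7 genes reached 1 FPKM in 3 or more mice and were tested with limma on log2(FPKM + 1) together with the other genes of the table, 12072 in all. With 3 mice per group, 0 of the 7 genes passed an adjusted p of 0.05, where 8.86% of all tested genes did. With quantile normalization or median-ratio scaling Fpgs, Tyms and Mthfd1 passed, where 14.4% and 14.0% of all tested genes did. With array quality weights every member except Shmt1 passed, where 59.0% of all tested genes did. At an unadjusted p of at most 0.05, 5 of the 7 genes passed, against 31.8% of all tested genes. The BBR and SASP values did not overlap for those 5 genes, against 37.9% of all tested genes. Slc46a1 and Ggh lay higher in all BBR mice than in any SASP mouse (21.3% of tested genes), and Fpgs, Tyms and Mthfd1 lay lower (16.6%). Slc19a1 and Shmt1 overlapped between the groups. The median log2 fold change of the 7 genes was -0.48, and that of all tested genes was 0.10. In bulk tissue, fewer cells of a type and less RNA per cell cannot be told apart.

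**Figure D1:**
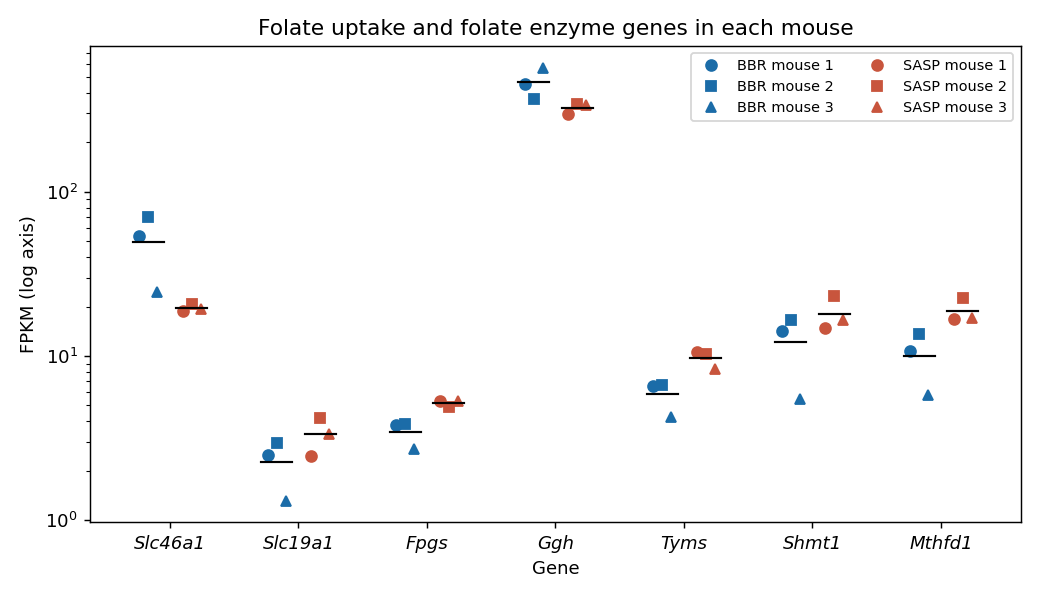
FPKM (log axis) of the 7 genes in each of the 3 BBR mice (blue) and 3 SASP mice (red), with black bars for group means. Ggh stands far above the other genes at 297 to 568 FPKM, Slc46a1 is parted between the groups, and BBR mouse 3 (blue triangle) has the lowest value of 5 genes.

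Promoter sequences of RefSeq (assembly GRCm38.p6, 250 bases before to 50 after a start) were matched for 6 of the 7 genes by symbol, and not for Ggh. They are printed for Slc46a1, Tyms and Mthfd1, the member with the largest difference upward, the one with the smallest p and the one with the largest difference downward. They lie at chr11:78465451-78465750 (+ strand), chr5:30073576-30073875 (- strand) and chr12:76254982-76255281 (+ strand). Each is written 5′ to 3′ on its gene's strand, with capitals for GC boxes (GGGCGG or its reverse complement) and for the E-box CACGTG.
Slc46a1: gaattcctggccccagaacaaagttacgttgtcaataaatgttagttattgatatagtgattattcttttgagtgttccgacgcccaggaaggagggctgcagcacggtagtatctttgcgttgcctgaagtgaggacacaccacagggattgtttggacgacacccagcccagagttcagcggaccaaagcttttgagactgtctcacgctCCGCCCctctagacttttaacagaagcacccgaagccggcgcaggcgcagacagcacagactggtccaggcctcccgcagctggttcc
Tyms: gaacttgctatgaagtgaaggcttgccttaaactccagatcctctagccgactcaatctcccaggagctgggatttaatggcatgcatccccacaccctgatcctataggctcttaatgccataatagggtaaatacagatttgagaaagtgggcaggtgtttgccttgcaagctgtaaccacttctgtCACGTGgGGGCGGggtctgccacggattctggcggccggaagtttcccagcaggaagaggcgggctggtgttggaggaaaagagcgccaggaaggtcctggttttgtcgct
Mthfd1: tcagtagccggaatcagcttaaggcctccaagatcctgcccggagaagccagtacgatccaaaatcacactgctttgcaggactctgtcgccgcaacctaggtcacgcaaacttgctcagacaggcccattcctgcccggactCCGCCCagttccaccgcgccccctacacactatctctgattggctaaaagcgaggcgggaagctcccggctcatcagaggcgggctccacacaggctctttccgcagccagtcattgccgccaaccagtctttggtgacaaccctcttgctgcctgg

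Both strands were searched, and overlapping matches were counted. A GC box was present in at least 1 promoter of 6 of the 6 matched genes, with 3 matches in Fpgs, 4 in Shmt1, 2 in the upstream start of Slc19a1 and 0 in its downstream start, and in 35.7% of 32851 promoters of this length in the table. CCAAT was present in Fpgs, Shmt1 and Mthfd1, and in 37.4% of all promoters. An E-box was present in Tyms only of the 6 genes, and in 7.15% of all. The TATA form TATAAA and the E2F-type forms TTTGGCGC, TTTCCCGC, TTTCGCGC and TTTGCCGC were found in 0 of the 6 genes, against 13.6% and, for any of the 4 forms, 2.26% of all promoters. The GC content of the matched promoters was 53.0% to 62.3%, against a median of 52.7% over all promoters. The counts for the 6 genes take any start of a gene, whereas the shares are of single promoters. A match is only a run of letters, and the absence of one says nothing of a factor.

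Slc46a1 (Gene ID 52466) encodes the proton-coupled folate transporter, which takes up dietary folate across the apical membrane of enterocytes. Its level was 53.6, 70.5 and 24.4 FPKM in BBR mice 1, 2 and 3, and 18.8, 20.7 and 19.3 FPKM in SASP mice 1, 2 and 3. The groups did not overlap, but BBR mouse 3 was close to the SASP range. The log2 fold change was 1.17 (SE 0.35, 95% interval 0.34 to 1.998), or 2.25-fold, the largest difference among the 7 genes, and it did not pass the threshold in limma (adjusted p = 0.0768). Without BBR mouse 3 it was 1.60 and passed (adjusted p = 0.00159), in a fit in which 33.8% of all tested genes passed. The SASP mice were tight, with a SD of 1.03 FPKM against 23.3 FPKM in BBR (n = 3 each).

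Slc19a1 (20509), the reduced folate carrier, exchanges folates for organic anions and serves most cell types. It was the lowest of the 7 genes, at 2.51, 2.97 and 1.32 FPKM under BBR against 2.48, 4.20 and 3.35 FPKM under SASP. The groups overlapped, and the log2 fold change was -0.43 (SE 0.25, 95% interval -1.01 to 0.15, limma adjusted p = 0.268). Without BBR mouse 3 it was -0.20.

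The transporters were compared within each mouse as a ratio, tested as the log2 of (FPKM + 1) over (FPKM + 1). The ratio of Slc46a1 to Slc19a1 FPKM was 21.4, 23.7 and 18.5 in BBR mice and 7.56, 4.94 and 5.75 in SASP mice. BBR mouse 3 lay near the other BBR mice in this ratio, although both of its transporter levels were the lowest of the BBR group. The difference in log2 ratio was 1.60, with groups that did not overlap, and the two-sided exact permutation test gave p = 0.1, the smallest that 3 against 3 mice allow (p = 0.2 adjusted over 4 pairs). Each way of leaving out 1 mouse gave a difference of 1.44 to 1.80.

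Fpgs (14287), folylpolyglutamate synthase, adds glutamates to folates and so holds them in the cell. It was at 3.83, 3.86 and 2.70 FPKM under BBR against 5.35, 4.91 and 5.31 FPKM under SASP. Every BBR mouse lay below every SASP mouse. The log2 fold change was -0.48 (SE 0.15, 95% interval -0.84 to -0.13, limma adjusted p = 0.0830), and without BBR mouse 3 it was -0.35 and passed (adjusted p = 0.0444).

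Ggh (14590), gamma-glutamyl hydrolase, removes these glutamates in the lysosome and opposes Fpgs. It was by far the most abundant of the 7 genes, with a mean over the 6 mice 140-fold that of Slc19a1. Its level was 452, 367 and 568 FPKM under BBR against 297, 340 and 334 FPKM under SASP. The lowest BBR value stayed above the highest SASP value, and BBR mouse 3 was highest of all. The log2 fold change was 0.49 (SE 0.18, 95% interval 0.07 to 0.91), or 1.41-fold (limma adjusted p = 0.113). Without BBR mouse 3 it was 0.33 (adjusted p = 0.0812).

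Within each mouse, Ggh exceeded Fpgs 118-, 94.96- and 210-fold in BBR mice and 55.6-, 69.3- and 62.9-fold in SASP mice. The log2 ratio of Fpgs to Ggh differed by -0.97 between BBR and SASP. The groups did not overlap, with a two-sided exact permutation p = 0.1 (0.2 adjusted). BBR mouse 3 was the most extreme mouse for this ratio, and without it the difference was -0.68.

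Tyms (22171), thymidylate synthase, uses a folate to make the thymidylate required for DNA replication. It was at 6.60, 6.67 and 4.23 FPKM under BBR against 10.6, 10.3 and 8.34 FPKM under SASP. The groups did not overlap. The log2 fold change was -0.67 (SE 0.19, 95% interval -1.11 to -0.22), or 0.630 of the SASP level, with the smallest adjusted p of the 7 genes (0.0670 in limma). Without BBR mouse 3 it was -0.48 and passed (adjusted p = 0.0292).

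Shmt1 (20425), cytosolic serine hydroxymethyltransferase, loads a carbon unit from serine onto folate. It was at 14.3, 16.5 and 5.51 FPKM under BBR against 14.7, 23.1 and 16.6 FPKM under SASP. BBR mouse 3 was low, BBR mouse 1 lay just under the lowest SASP mouse and BBR mouse 2 within the SASP range. The log2 fold change of -0.65 (SE 0.38, 95% interval -1.54 to 0.24, limma adjusted p = 0.272) became -0.20 without BBR mouse 3.

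Mthfd1 (108156), a cytosolic enzyme with several activities that interconvert folate forms, was at 10.8, 13.6 and 5.78 FPKM under BBR against 16.8, 22.6 and 17.01 FPKM under SASP. The groups did not overlap. The log2 fold change was -0.90 (SE 0.28, 95% interval -1.57 to -0.23, limma adjusted p = 0.0854), and without BBR mouse 3 it was -0.58 and passed (adjusted p = 0.0391).

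**Figure D2:**
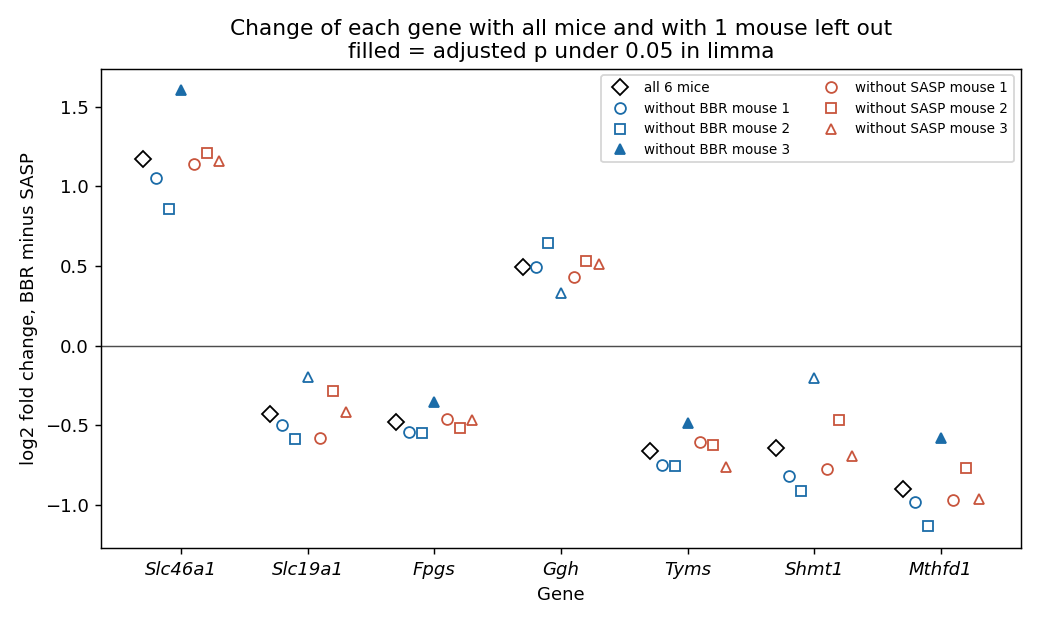
Log2 fold change (BBR minus SASP) of the 7 genes with all 6 mice (diamonds) and with each mouse left out (other symbols), filled where the adjusted p in limma was under 0.05. With all mice 0 genes are filled, and the 4 filled symbols, of Slc46a1, Fpgs, Tyms and Mthfd1, all come from leaving out BBR mouse 3, a fit in which 33.8% of all tested genes passed.

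Each of the 7 genes kept its sign in all 6 fits that left out a mouse. In the fit without BBR mouse 3, 4 of 7 genes passed, where 33.8% of all tested genes did. In the fits without any other mouse 0 of 7 did, where the share of all tested genes was 1.10% and 3.13% without BBR mouse 1 and 2, and 0.494%, 3.40% and 0.428% without SASP mouse 1, 2 and 3. The number of calls thus moved over the whole table, not for these genes alone. The enzymes were closer to 0 without BBR mouse 3, and Slc46a1 was farther from it. The part of tissue makeup in these differences was not tested. Markers of cycling cells summed to 66.8 to 112 FPKM under BBR against 204 to 272 FPKM under SASP, without overlap. Of these 8 markers, 5 passed the threshold as lower in BBR. Of all tested genes, 8.86% passed the threshold in either direction and 5.04% as lower. Each of the 8 cycling markers was lowest in BBR mouse 3. This mouse also had the lowest Slc19a1, Fpgs, Tyms, Shmt1 and Mthfd1, and the lowest value of 24 of the 38 other tested folate and linked genes. How many of all tested genes were lowest in this mouse was not counted. These counts can therefore not be read as particular to folate or cycling genes. Smooth muscle markers were higher in BBR in 8 of 8 cases, with 0 past the threshold in limma (6 at an unadjusted p of at most 0.05). Of all 12072 tested genes, 7337 were higher in BBR. Stromal markers summed to 260 to 353 FPKM under BBR against 118 to 209 FPKM under SASP. Of these 7 markers, 3 passed the threshold, all higher, as did 461 of all tested genes. The colon markers, whose sums did not overlap, were higher in BBR for 6 of 6 genes. The groups overlapped for 4 of these genes, and the median log2 fold change was 0.24. Car1 had the largest difference and weighs heavily in the sums. It was at 1200, 1261 and 2345 FPKM under BBR against 71.8, 853 and 328 FPKM under SASP (limma adjusted p = 0.0950). Only the intestinal transcription factor gene Cdx2 passed the threshold (log2 fold change 1.496, limma adjusted p = 0.0422). Both genes were named after their values were seen. Sums of epithelial markers overlapped between the groups, at 5689 to 6224 FPKM under BBR against 5991 to 7192 FPKM under SASP. Of the 8 genes 1 passed the threshold in limma as higher in BBR and 1 as lower. At an unadjusted p of at most 0.05, 4 of 8 passed (31.8% of all tested genes), with groups that did not overlap (37.9%). Of these, Krt18 was higher in BBR, and 3, Krt20, Vil1 and Cldn7, were lower. Leukocyte markers also overlapped, at 14.1 to 25.2 and 23.6 to 55.5 FPKM, with 0 of 5 tested genes past the threshold in limma (3 unadjusted).

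Across the 6 mice the levels of the 7 genes varied together in part. Pearson's r of log2(FPKM + 1) was 0.97 between Slc19a1 and Shmt1, 0.95 between Fpgs and Tyms and 0.95 between Tyms and Mthfd1. Ggh ran against these genes, with r from -0.95 to -0.75 with Fpgs, Tyms, Mthfd1, Shmt1 and Slc19a1. Slc46a1 followed none of them closely, with r from -0.42 to 0.29. These values share 6 libraries and include the difference between the groups, so they only describe them.

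Genes most like 3 of the members were sought by r over the 6 mice among 6037 tested genes with a mean of at least 10.0 FPKM. For Slc46a1 they were Ap3d1, an adaptor complex subunit, Atg101, an autophagy gene, and Tgif1, a homeobox repressor, at r of 0.997 to 0.999. Tgif1 was at 33.1, 41.1 and 12.5 FPKM under BBR against 10.1, 11.6 and 10.8 FPKM under SASP, again with BBR mouse 3 near the SASP mice. For Slc19a1 they were Coq5, Pitpnb and E2f4 (r of 0.991 to 0.996), and for Tyms they were Pih1d1, the spindle checkpoint gene Mad2l1 and the replication enzyme gene Top2a (0.995 to 0.996). Top2a is also a cycling cell marker, at 13.4, 12.1 and 4.74 FPKM under BBR against 45.7, 38.5 and 25.6 FPKM under SASP. Many genes reach such values with 6 mice, as 864, 137 and 412 genes had r above 0.9 with Slc46a1, Slc19a1 and Tyms.

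The other genes of the folate pathway were examined as lists of receptors, cytosolic enzymes, mitochondrial genes and exporters. Of 24 genes, 19 were tested, and 2 passed the threshold, both lower in BBR (5.04% of all tested genes passed as lower). The median log2 fold change was -0.14. Aldh1l1, cytosolic formyltetrahydrofolate dehydrogenase, which releases the formyl group of folate as carbon dioxide, was at 57.4, 59.9 and 46.1 FPKM under BBR against 84.1, 86.3 and 72.6 FPKM under SASP. The groups did not overlap, and the log2 fold change was -0.57 (SE 0.13, limma adjusted p = 0.0466). It no longer passed when a mouse other than BBR mouse 3 was omitted (adjusted p = 0.0800 to 0.175), with no filter (0.0668) or with no variance trend (0.0581).

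Mthfd2, a mitochondrial enzyme of the same carbon route that is typically high in dividing cells, was at 2.16, 1.98 and 3.62 FPKM under BBR against 6.32, 5.36 and 6.05 FPKM under SASP. It was lower in BBR by 0.97 on the log2 scale (SE 0.19, limma adjusted p = 0.0324). Unlike the cytosolic enzymes, it was highest within the BBR group in BBR mouse 3. Omitting a mouse other than BBR mouse 3 (adjusted p = 0.0728 to 0.137) or the filter (0.0614) ended this call. In the receptor list Folr2 was at 0.95 to 2.22 FPKM under BBR against 1.23 to 1.51 FPKM under SASP (log2 fold change 0.09, adjusted p = 0.771), and Folr1 lay below the filter. In the exporter list 0 of 4 tested genes passed in limma (1 unadjusted), and the most abundant, Abcc3, was at 60.7 to 66.4 FPKM under BBR against 53.0 to 66.5 FPKM under SASP (0.15, adjusted p = 0.410).

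The ratio of Shmt2 to Shmt1 was 0.409, 0.435 and 0.592 in BBR and 0.661, 0.402 and 0.538 in SASP mice, and that of Mthfd2 to Mthfd1 was 0.201, 0.146 and 0.626 in BBR and 0.377, 0.237 and 0.356 in SASP mice. The log2 differences were -0.09 and -0.07 (two-sided exact permutation p = 0.9 for each, also after adjustment), and both pairs overlapped between the groups. BBR mouse 3 had the highest Mthfd2 to Mthfd1 ratio of all mice. Without it the difference for this pair was -0.58, with groups that did not overlap and an exact permutation p = 0.2, the smallest that 2 against 3 mice allow. With pseudocounts of 0.1 and 0.01 in place of 1 it was -0.24 and -0.26.

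**Figure D3:**
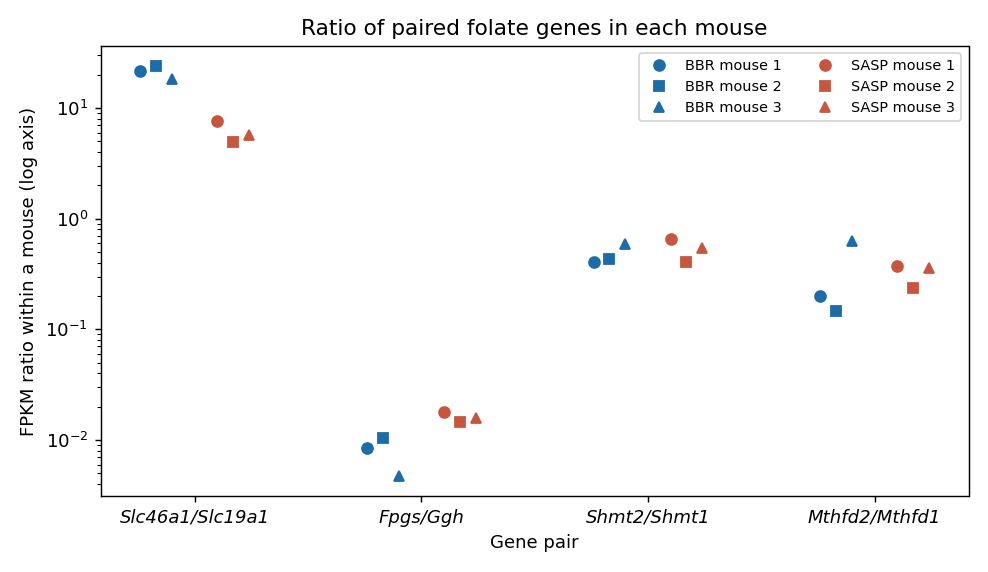
FPKM ratio (log axis) of 4 gene pairs within each of the 3 BBR mice (blue) and 3 SASP mice (red). Slc46a1/Slc19a1 lies at 18.5 to 23.7 in BBR and 4.94 to 7.56 in SASP mice and Fpgs/Ggh is lower in every BBR mouse, while the other pairs overlap.

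Pathways that consume or feed folate carbons were examined last. Of 21 genes, 19 were tested, and 3 passed the threshold, all lower in BBR (5.04% of all tested genes passed as lower). The median log2 fold change was -0.55. In the thymidylate and dNTP supply list, 6 of 6 genes were lower with groups that did not overlap (16.6% of all tested genes), and 2 passed (5.04% of all tested genes passed as lower). Rrm2, the regulated subunit of ribonucleotide reductase, which makes deoxynucleotides, was at 2.91, 4.27 and 1.53 FPKM under BBR against 16.7, 15.2 and 14.0 FPKM under SASP. It fell by 2.12 on the log2 scale (SE 0.26, limma adjusted p = 0.00964), a call that ended when SASP mouse 1 or 3 was omitted (adjusted p = 0.0586 and 0.0561). Rrm1, the large subunit, fell by 1.27 (adjusted p = 0.0375), from 18.6 to 23.5 FPKM in SASP to 4.98 to 11.5 FPKM in BBR mice. Omitting BBR mouse 1 or a SASP mouse (adjusted p = 0.0849 to 0.151) or the filter (0.0628) ended this call.

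In serine synthesis, which feeds Shmt1 and its mitochondrial partner, 1 of 3 genes passed, where 8.86% of all tested genes did. Psat1, phosphoserine aminotransferase, was at 1.72, 2.40 and 2.08 FPKM under BBR against 8.46, 5.38 and 5.13 FPKM under SASP. It was lower in BBR by 1.23 (SE 0.20, limma adjusted p = 0.0199), a call that ended when BBR mouse 1 or SASP mouse 1 or 3 was omitted (adjusted p = 0.0660 to 0.0757). In purine synthesis 0 of 6 genes passed in limma (3 unadjusted, all lower in BBR). The median log2 fold change was -0.37, with 5 of 6 genes lower, 4 of them without overlap (16.6% of all tested genes). Paics, the most abundant and the 1 gene of the list that was higher, was at 42.4, 48.6 and 18.4 FPKM under BBR against 24.1, 26.9 and 25.1 FPKM under SASP (log2 fold change 0.40, adjusted p = 0.430). In the methionine cycle 0 of 4 tested genes passed in limma (1 unadjusted). In this list 4 of 4 were higher in BBR with groups that overlapped, where 7337 of all 12072 tested genes were higher. Mat2a, which makes the methyl donor S-adenosylmethionine, was at 124, 127 and 84.0 FPKM under BBR against 67.4, 82.2 and 86.9 FPKM under SASP (log2 fold change 0.48, limma adjusted p = 0.132).

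**Figure D4:**
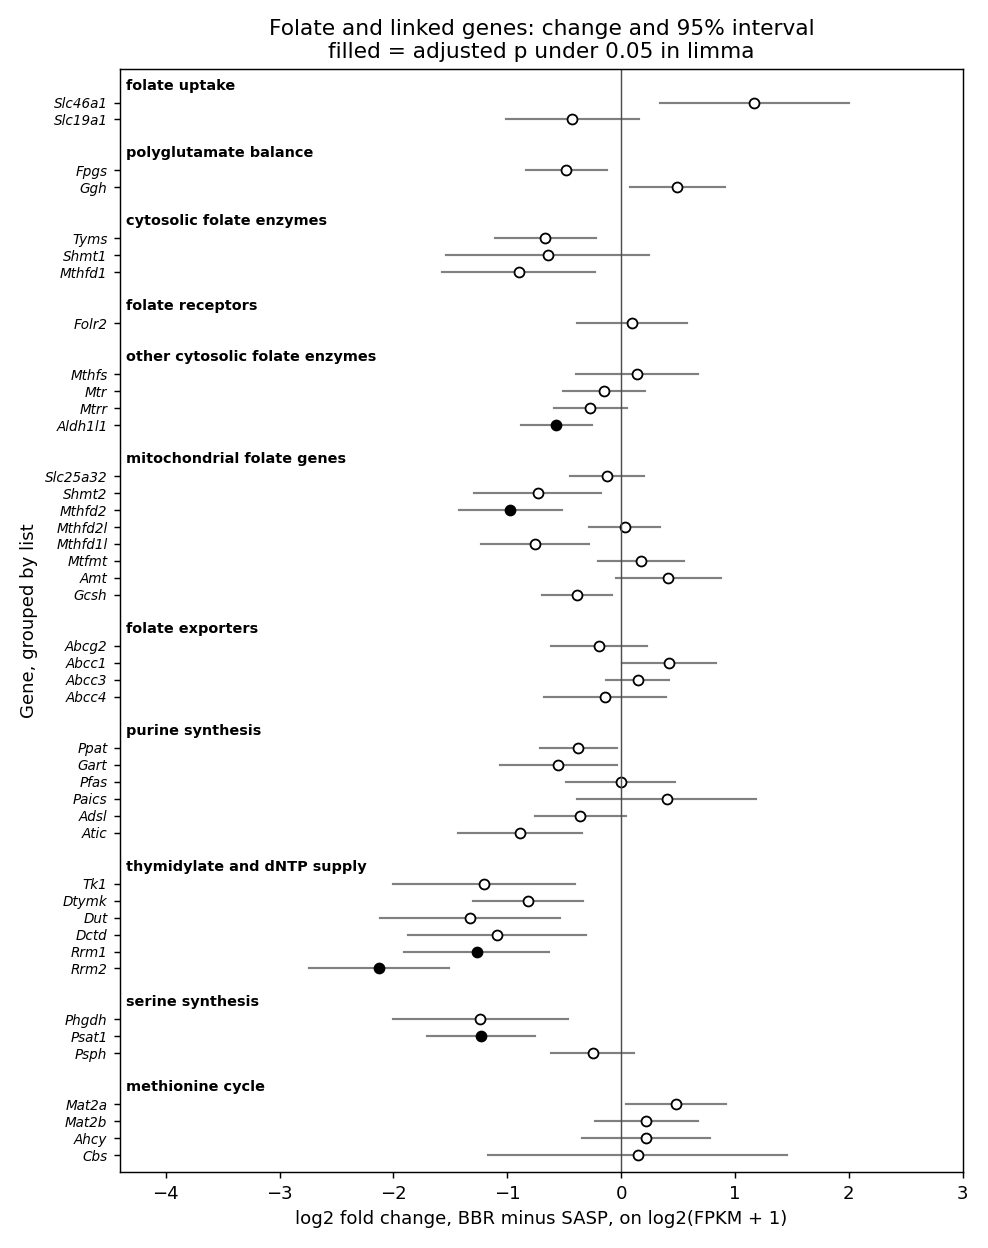
Log2 fold change (BBR minus SASP, circles) with its 95% interval (lines) for the 7 genes and 36 of the 38 other tested folate and linked genes, grouped by list and filled where the adjusted p in limma was under 0.05. The 5 filled circles, Aldh1l1, Mthfd2, Rrm1, Rrm2 and Psat1, all lie below 0, and the 6 thymidylate and dNTP supply genes also all lie below 0.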

How the data were processed

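RNA sequencing of colorectal tissue from 3 BBR and 3 SASP colitis mice was analysed, with groups taken from the treatment label. Each library was taken as 1 mouse, though the labels do not say so, and p-values measure the spread between these libraries. The authors deposited 1 FPKM value per gene and library, rounded to 2 decimals. The labels' processing notes name Bowtie2 2.2.5, RSEM 1.2.12 and mm9, and the annotation is not given in the sources used here. RSEM shares reads among genes they fit equally, so similar paralogs are less certain.

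FPKM are not counts, so log2(FPKM + 1) was fitted with limma 3.58.1 (R 4.3.3, variance trend, two-sided, Benjamini-Hochberg over the 12072 genes that reached 1 FPKM in 3 or more libraries, threshold 0.05). Fold changes on this scale understate changes of low genes. The limma step was also run on simulated data with independent noise for each gene. No simulated library stood apart, so that run says nothing of the effect of BBR mouse 3. Ratios within a mouse, of FPKM + 1, used an exact permutation test (scipy 1.17.1). Depth was estimated from genes above 0 in 1 library only with a GENCODE M21 transcript under 1500 bases, taking the median such value as 1 read, and is approximate (31 to 56 genes per library).

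The 7 genes and all lists were chosen with earlier results of these data known. Named were all 7 members, list genes past the threshold, the most abundant gene of a list with none, and the 3 most similar genes of 3 members. Alternatives were other pseudocounts, filters, scalings and weights, and each mouse left out. Coordinates are given for RefSeq promoter windows alone, on GRCm38.p6, which is another build than the notes name. Values of 2 tested pathway genes are not reported here, though list counts and medians include them.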

Additional observations from a re-analysis of the deposited data

How the results depend on the processing

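All fitted members kept their direction in every alternative, although the stricter filter at a mean of 5 FPKM left 5 of the 7 to fit. The count of members past the threshold was 0 with pseudocounts of 0.1 and 0.01, with no filter, with a mean of at least 5 FPKM and with no variance trend. It was 3 with quantile normalization (Fpgs -0.59, Tyms -0.75, Mthfd1 -0.96), where 14.4% of all tested genes passed. It was also 3 with median-ratio scaling (-0.59, -0.79 and -1.03), where 14.0% passed and the median of all genes moved from 0.10 to -0.02. With array quality weights it was 6 (Slc46a1 1.44, Slc19a1 -0.30, Fpgs -0.38, Ggh 0.43, Tyms -0.37, Mthfd1 -0.65), where 59.0% of all tested genes passed. At an unadjusted p of at most 0.05 it was 5, where 31.8% of all tested genes passed. The cause was not tested. Over the left-out mice the count ranged from 0 to 4, where 0.428% to 33.8% of all tested genes passed. Slc46a1 was at 0.86 to 1.60, Slc19a1 at -0.59 to -0.20, Fpgs at -0.55 to -0.35, Ggh at 0.33 to 0.65, Tyms at -0.76 to -0.48, Shmt1 at -0.91 to -0.20 and Mthfd1 at -1.14 to -0.58.

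Over all genes 1069 passed, and 608 with no filter, 1737 with quantile normalization, 1684 with median-ratio scaling (498 higher and 1186 lower, against 461 and 608), 7126 with array weights and 3837 at an unadjusted p of at most 0.05. Without single mice the count ranged from 51 without SASP mouse 3 to 4018 without BBR mouse 3. Of the 38 tested pathway and linked genes 5 passed the threshold, where 8.86% of all tested genes did. Quantile normalization gave 16 (14.4% of all tested genes), median-ratio scaling 17 (14.0%) and array weights 31 (59.0%). Fits without single mice gave 0 to 18, where 0.428% to 33.8% of all tested genes passed. Dropping the filter gave 2, where 608 of all 18260 genes passed. The stricter filter gave 3, where 801 of all 8392 genes passed. A changed filter or a left-out mouse can alter how many of these genes are tested. The Fpgs to Ggh difference ranged from -1.20 to -0.68 over left-out mice. The Shmt2 to Shmt1 difference ranged from -0.27 to 0.07 and that of Mthfd2 to Mthfd1 from -0.58 (without BBR mouse 3) to 0.28, so both changed sign: omitting BBR mouse 1 gave 0.01 and omitting SASP mouse 1 gave 0.0702 for Shmt2 to Shmt1, and Mthfd2 to Mthfd1 was 0.09 and 0.28 without BBR mouse 1 and 2 and 0.04 and 0.01 without SASP mouse 1 and 3. No mice are paired, as labels give no shared replicate numbers. Slc19a1 and Fpgs rest on the fewest reads, and 3 mice per group limit each test.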
